A study of Homo sapiens with 18 samples.

Results

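The KMT2 and SETD1 methyltransferase complex genes comprised KMT2A, KMT2B, KMT2C, KMT2D, SETD1A and SETD1B, which encode histone H3 lysine 4 (H3K4) methyltransferases, and MEN1, KDM6A, NCOA6 and CXXC1, which encode subunits found in some of these complexes only. They were taken by gene symbol from the counts table and are 10 of its 58815 genes. All 10 were among the 12160 genes that passed the filter on low counts, with 295 to 21077 reads in each library.

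RNA came from 3 lines derived from MDA-MB-231 cells, which are established human cells of triple-negative breast cancer, namely LM2 cells selected for lung metastasis, BrM3 cells selected for brain metastasis and BoM cells selected for bone metastasis. Each line carried a doxycycline (DOX) inducible hairpin on a lentiviral vector, either the control hairpin shCtrl or shWDR5-1 (here shWDR5), and every library, controls included, came from cells kept for 3 days in DOX at 1 μg/mL. There were 3 libraries for each of the 6 groups, 18 in all, harvested at different passages, so the p-values measure the spread between passages of a line. Only 1 hairpin against WDR5 was sequenced, so an effect of the hairpin's sequence cannot be told apart from that of lower WDR5.

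In mammals the writers of H3K4 methylation form 3 pairs of related complexes, and WDR5, RBBP5, ASH2L and DPY30 form a core that all of them share. Menin, the product of MEN1, belongs to the KMT2A and KMT2B complexes. The H3K27 demethylase KDM6A and the coactivator NCOA6 belong to the KMT2C and KMT2D complexes, which mark enhancers. CXXC1 binds unmethylated CpG in the SETD1A and SETD1B complexes, which make much of the H3K4 trimethylation at promoters. The comparison of shWDR5 with shCtrl asks here whether loss of the shared subunit goes along with a change in the transcripts of its partners.

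Of the 10 genes, MEN1 (lower) and KDM6A (higher) were those whose shWDR5 and shCtrl libraries did not overlap in any line. Over all tested genes this held for 7.14% in the lower direction and 3.4% in the higher. KMT2D, a complex partner of KDM6A, overlapped in every line, as did KMT2B, KMT2C, NCOA6, SETD1A and CXXC1. The 250 bases upstream of a RefSeq start of MEN1, KDM6A and KMT2D (GRCh38.p14, 5′ to 3′ on the gene's strand) are printed to show what these 3 promoters hold. The E-box CACGTG, the site bound by MYC and related factors, is in capitals.
MEN1 (chr11:64810552-64810801, minus strand): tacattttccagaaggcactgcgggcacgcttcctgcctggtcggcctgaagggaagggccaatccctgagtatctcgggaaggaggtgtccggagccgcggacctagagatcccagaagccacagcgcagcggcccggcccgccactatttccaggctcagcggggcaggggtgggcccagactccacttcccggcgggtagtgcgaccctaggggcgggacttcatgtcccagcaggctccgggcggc
KDM6A (chrX:44872938-44873187, plus strand): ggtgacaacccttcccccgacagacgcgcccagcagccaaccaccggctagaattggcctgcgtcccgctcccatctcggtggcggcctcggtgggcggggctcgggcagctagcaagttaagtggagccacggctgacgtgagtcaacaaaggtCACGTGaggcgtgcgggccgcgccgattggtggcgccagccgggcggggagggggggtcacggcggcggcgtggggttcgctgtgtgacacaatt
KMT2D (chr12:49060795-49061044, minus strand): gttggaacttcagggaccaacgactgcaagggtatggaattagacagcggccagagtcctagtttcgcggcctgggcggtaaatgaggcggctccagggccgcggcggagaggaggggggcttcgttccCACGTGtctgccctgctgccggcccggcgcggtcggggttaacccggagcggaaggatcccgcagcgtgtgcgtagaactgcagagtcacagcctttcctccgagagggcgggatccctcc

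RefSeq windows were matched for 8 of the 10 genes, with 9 windows in all because MEN1 has a second start; NCOA6 and SETD1B were not matched. The E-box, which reads the same on both strands, began 95 bases before the start of KDM6A and 121 bases before that of KMT2D and was in none of the other 7 windows, against 6.3% of all 35116 windows of 250 bases. The ETS motif CCGGAAG, searched on both strands, was in 0 of the 9, against 8.5% of all windows. The windows held between 15 CpG dinucleotides (the other start of MEN1) and 48 (KMT2C), above the median of 11 over all windows. These matches describe letters only.

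WDR5 itself was lower in every shWDR5 library. Its normalized level in CPM (reads of a gene relative to the library's total after TMM scaling) was 112, 127 and 133 CPM in LM2 shCtrl and 24.2, 24.3 and 20.4 CPM in LM2 shWDR5. In BrM3 it was 85.1, 92.9 and 79.1 CPM against 20.7, 21.2 and 23.4 CPM, and in BoM 87.1, 90.1 and 90 CPM against 13.9, 21 and 22 CPM. Knockdown left 18.5% of the control level in LM2 cells, 25.5% in BrM3 cells and 21.2% in BoM cells, with adjusted p of 1.8e-08, 4.2e-07 and 6.2e-08 by edgeR's quasi-likelihood test.

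Total counts ran from 17485841 to 119667013 per library with a median of 37861544, and each of the 18 libraries correlated best with a library of its own titled line. Libraries differed in the balance of GC-rich and GC-poor genes, from -0.65 to 0.57 on the log2 scale, and BoM shWDR5 replicate 1 was the lowest. The 5 epithelial markers summed to between 561 and 920 CPM, carried by keratins, with CDH1 at 0.0384 to 0.598 CPM, so E-cadherin, a defining epithelial marker, was near absent. Of the 3 mesenchymal markers, VIM was at 1490 to 2220 CPM, FN1 at 104 to 1300 CPM and CDH2 (N-cadherin) at 0.114 to 0.881 CPM. FN1 differed by line, with means of 1050 CPM in LM2, 350 CPM in BrM3 and 148 CPM in BoM controls. Of the 3 receptors that define the subtype, ESR1 reached 0.534 CPM and PGR 0.712 CPM at most, while ERBB2 was at 41.3 to 82.9 CPM in every library. The leukocyte marker PTPRC reached 1.05 CPM and the endothelial marker PECAM1 4.65 CPM. These are bulk samples, in which fewer expressing cells and less RNA per cell cannot be told apart.

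**Figure D1:**
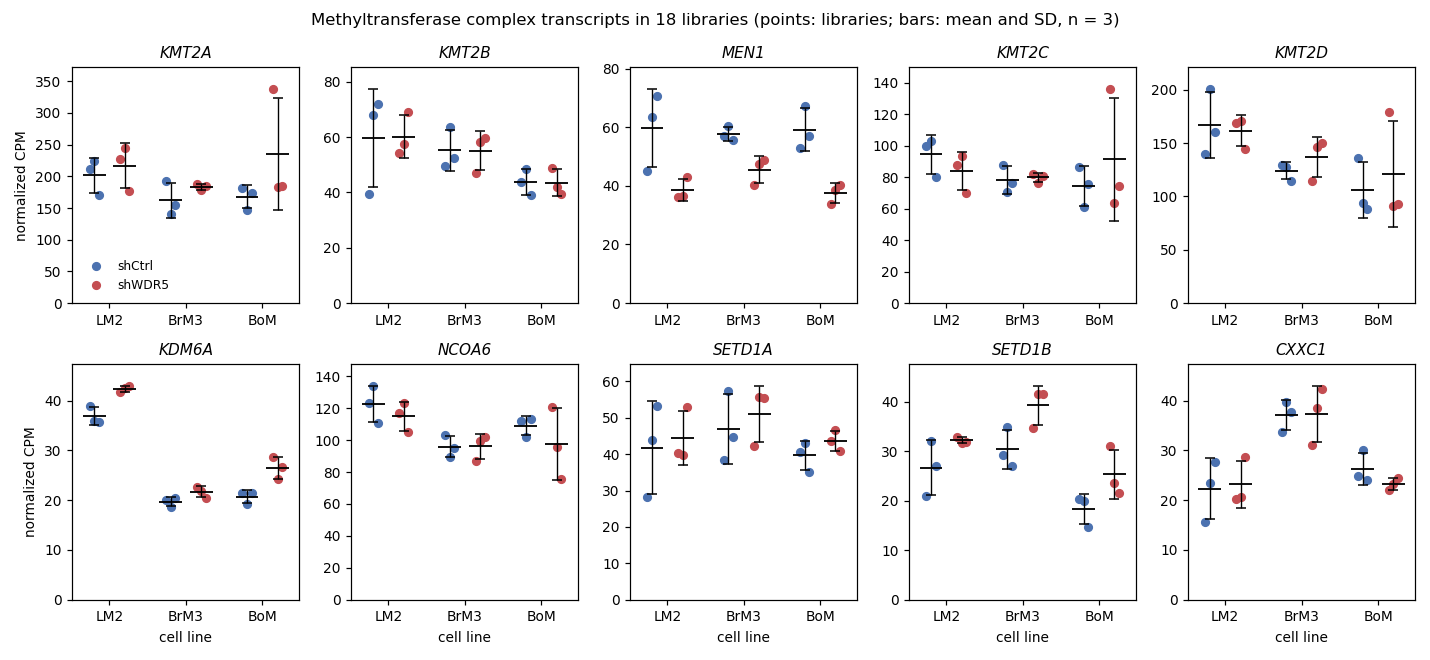
Normalized CPM (vertical axis, from 0) of the 10 genes in each of the 18 libraries, by line (horizontal axis) and hairpin, with the mean and SD of 3 libraries. MEN1 lies lower and KDM6A higher in every shWDR5 group, and the KMT2A, KMT2C and KMT2D panels show BoM shWDR5 replicate 1 apart at 338, 136 and 179 CPM.

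After WDR5 knockdown MEN1 fell, KDM6A and SETD1B rose, and the other 7 genes passed the test in no line and not in the mean of the 3 lines. Passing the test means an adjusted p under 0.05 over all 12160 genes. In LM2, 1 of the 10 genes fell and 0 rose, where 4.8% of all tested genes fell and 1.49% rose (6.29% in either direction). In BrM3, 0 of 10 passed by edgeR and 0 by DESeq2, with 2 at an unadjusted p under 0.05 (MEN1 and SETD1B), against 7.96% of all tested genes lower and 2.92% higher (10.9%). In BoM, 1 fell and 1 rose, against 10.8% lower and 5.41% higher (16.2%). For the mean of the 3 lines, 1 fell and 2 rose, 3 of 10 in all, against 19.9% lower and 15.6% higher, or 35.5% in either direction. A share of 3 in 10 is near that background, so the count by itself is no result about these genes. The median log2 difference in LM2 was 0.02 over the 10 genes and -9e-04 over all tested genes. In BrM3 these medians were 0.08 and -0.0048, and in BoM 0.17 and 0.016. The shWDR5 libraries lay wholly below the shCtrl libraries for 1 of the 10 genes, MEN1, in each line, as for 14.6%, 19.7% and 17.3% of all tested genes in LM2, BrM3 and BoM. They lay wholly above for 1 gene in LM2, 1 in BrM3 and 3 in BoM (KMT2A, KDM6A and SETD1B), as for 10.7%, 15.9% and 12.8%.

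Some markers of cell state also passed the test after knockdown. Of all tested genes, 19.9% fell and 15.6% rose in the mean of the 3 lines. In the mean of the 3 lines 3 of the 5 epithelial markers fell, EPCAM by 0.60 on the log2 scale (adjusted p = 8e-06), KRT19 by 0.54 (adjusted p = 0.0019) and KRT8 by 0.25 (adjusted p = 0.035), and KRT18 rose by 0.20 (adjusted p = 0.036), while CDH1 was too low to be tested. The epithelial sum overlapped between hairpins in LM2 (606 to 773 CPM in shCtrl and 768 to 792 CPM in shWDR5) and in BrM3 (772 to 905 CPM and 655 to 920 CPM), and also in BoM, where it was 628 to 855 CPM in shCtrl and 561 to 635 CPM in shWDR5. Of the 3 mesenchymal markers VIM rose by 0.20 (adjusted p = 0.012), FN1 did not pass and CDH2 was too low to be tested. Of the 2 markers of other cells PECAM1 rose by 0.41 in the mean (adjusted p = 0.012) and by 0.70 in LM2 (adjusted p = 0.033). PTPRC was too low to be tested. The sum of PTPRC and PECAM1 reached 5.23 CPM at most. The part of these markers in the members' changes was not tested.

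**Figure D2:**
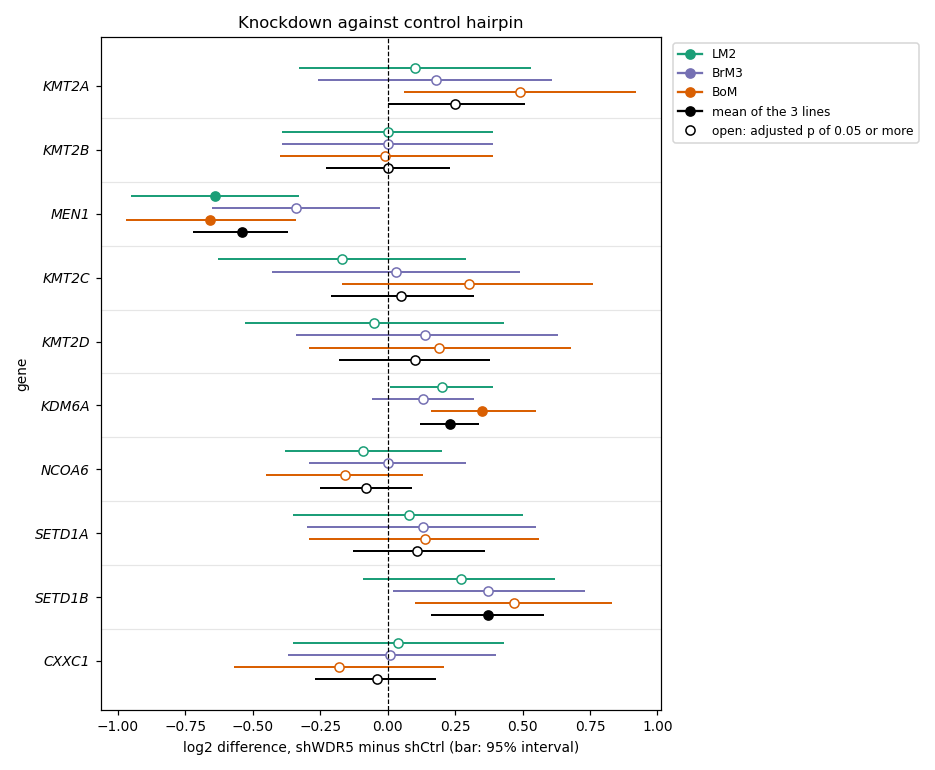
Log2 difference of shWDR5 minus shCtrl (horizontal axis) for the 10 genes (vertical axis) in each line and for the mean of the 3 lines, with 95% intervals. Filled points have an adjusted p under 0.05: MEN1 in LM2, BoM and the mean, KDM6A in BoM and the mean, and SETD1B in the mean.

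MEN1 (ENSG00000133895, chr11:64803510-64811294 on the minus strand) encodes menin, the scaffold that ties the KMT2A and KMT2B complexes to chromatin and a tumour suppressor of endocrine glands. In LM2 it was at 45, 63.6 and 70.8 CPM in shCtrl and at 36.2, 36.7 and 43 CPM in shWDR5. In BrM3 the values were 56.9, 60.5 and 55.7 CPM in shCtrl and 40.2, 47.3 and 48.9 CPM in shWDR5. In BoM they were 53.1, 67.3 and 56.9 CPM in shCtrl and 33.8, 38.7 and 40.2 CPM in shWDR5. Every shWDR5 library lay below every shCtrl library of its line in all 3 lines, as for 7.14% of all tested genes. MEN1 fell by 0.64 on the log2 scale in LM2 (SE 0.14, adjusted p = 0.012) and by 0.66 in BoM (SE 0.14, adjusted p = 0.0049). In BrM3 the log2 difference was -0.34 (SE 0.14, adjusted p = 0.14), which did not pass. Averaged over the lines MEN1 fell to 68.6% of control, a log2 difference of -0.54 (SE 0.08, adjusted p = 8e-05), and 6.88% of tested genes had a lower value. The BrM3 response was not shown to differ from that of LM2 (difference 0.30 on the log2 scale, 95% interval -0.14 to 0.73, adjusted p = 1). The call in LM2 was lost without shCtrl replicate 2 (-0.59) or 3 (-0.50) or without shWDR5 replicate 1 (-0.59) or 2 (-0.60), and also when LM2 was fitted alone (-0.63).

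KMT2A and KMT2B are the menin-bound methyltransferases, known for their work at HOX genes. KMT2A (ENSG00000118058), the gene rearranged in acute leukaemias, was at 211, 224 and 171 CPM in LM2 shCtrl and 228, 245 and 177 CPM in LM2 shWDR5. In BoM shWDR5 it was at 338, 183 and 185 CPM, against 182, 147 and 174 CPM in BoM shCtrl. Replicate 1 stood far above the others there, while the other shWDR5 libraries lay just above the highest control. The log2 difference in BoM was 0.49 (SE 0.20, adjusted p = 0.11), and 0.13 without shWDR5 replicate 1 (adjusted p = 0.62). In LM2 and BrM3 it was 0.10 and 0.18. The mean of the 3 lines was 0.25 (95% interval 0.00 to 0.51, adjusted p = 0.094), which did not pass. That mean passed in 4 of 7 alternative processings and in 2 of the 18 fits with a library left out. KMT2A shares 21.8% of its 31-base stretches with other annotated transcripts, mainly a readthrough gene that overlaps it, so its counts are uncertain to that extent. KMT2B (ENSG00000272333) gave log2 differences of 0.00, 0.00 and -0.01 in LM2, BrM3 and BoM, with a 95% interval for the mean of -0.23 to 0.23. An average change of KMT2B beyond that interval was not detected.

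KDM6A (ENSG00000147050, chrX:44873188-45112779 on the plus strand), also called UTX, removes methyl groups from H3K27 within the KMT2C and KMT2D complexes. In LM2 it was at 38.9, 36 and 35.8 CPM in shCtrl and at 41.7, 42.6 and 42.9 CPM in shWDR5. In BrM3 the values were 20, 18.7 and 20.4 CPM in shCtrl and 22.7, 21.8 and 20.5 CPM in shWDR5, so that the nearest libraries were almost level. In BoM they were 21.5, 19.3 and 21.4 CPM in shCtrl and 28.7, 24.3 and 26.6 CPM in shWDR5. Every shWDR5 library lay above every shCtrl library of its line, as for 3.4% of all tested genes. KDM6A rose by 0.35 on the log2 scale in BoM (SE 0.09, adjusted p = 0.011) and by 0.23 over the 3 lines (SE 0.05, adjusted p = 0.0019), to 117% of control. The log2 differences in LM2 and BrM3 were 0.20 (adjusted p = 0.19) and 0.13 (adjusted p = 0.38). The call in BoM was lost without shCtrl replicate 2 (0.30), with BoM fitted alone (0.36) and with no filter (0.37), whereas the mean kept its call under each alternative tried. KDM6A shares 4.11% of its 31-base stretches with a related gene.

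The enzymes of the same complexes, KMT2C and KMT2D, and the coactivator NCOA6 passed the test in no line. KMT2C (ENSG00000055609), often mutated in breast cancer, had log2 differences of -0.17, 0.03 and 0.30 in LM2, BrM3 and BoM. KMT2D (ENSG00000167548) had -0.05, 0.14 and 0.19. In BoM shWDR5, KMT2C was at 136, 63.7 and 74.4 CPM and KMT2D at 179, 91 and 93.3 CPM, with replicate 1 again the highest of both, and without it their BoM differences were -0.11 and -0.20. Part of KMT2C's sequence (10.12% of 31-base stretches) is repeated in BAGE2 and other copies. NCOA6 (ENSG00000198646) was at 123, 134 and 111 CPM in LM2 shCtrl and 117, 123 and 105 CPM in LM2 shWDR5, and its mean log2 difference was -0.08 (95% interval -0.25 to 0.09).

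SETD1B (ENSG00000139718, chr12:121804009-121832656 on the plus strand) was the methyltransferase gene that passed the test, in the mean of the 3 lines. Its levels in LM2 were 21, 32.1 and 27.1 CPM in shCtrl and 32.9, 31.8 and 32 CPM in shWDR5. In BrM3 they were 29.2, 34.9 and 27.1 CPM against 34.8, 41.6 and 41.7 CPM, and in BoM 20.3, 19.9 and 14.8 CPM against 31, 23.7 and 21.5 CPM. The groups overlapped in LM2 and narrowly in BrM3, and they were apart in BoM. In the fit used throughout, no single line passed, with log2 differences of 0.27, 0.37 and 0.47 and adjusted p of 0.40, 0.16 and 0.067. In BoM it did pass by DESeq2 (0.48, adjusted p = 0.032), with no filter (0.47, adjusted p = 0.023) and with a correction for each library's dependence on GC content (0.73, adjusted p = 0.0049), and with that correction it also passed in BrM3 (0.57, adjusted p = 0.019). For the mean of the 3 lines SETD1B rose by 0.37 (SE 0.09, adjusted p = 0.006), to 129% of control, and 96.8% of tested genes had a lower value. The related SETD1A (ENSG00000099381) had a mean log2 difference of 0.11 (SE 0.11, adjusted p = 0.45), and CXXC1 (ENSG00000154832), their CpG-binding subunit, one of -0.04 (SE 0.10, adjusted p = 0.77). The interval of SETD1A, -0.13 to 0.36, holds much of the range of SETD1B, 0.16 to 0.58, and the difference between these genes was not tested.

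GC content separates the 10 genes. KMT2B, MEN1, KMT2D, SETD1A, SETD1B and CXXC1 have transcripts with 58.9 to 62.4% GC, and KMT2A, KMT2C, KDM6A and NCOA6 lie between 41.8 and 49.2%. The GC-rich minus GC-poor difference among the 10 genes followed that of all genes over the 18 libraries (Pearson r = 0.629, as a description, since both come from the same libraries). BoM shWDR5 libraries were all GC-poor, at -0.65, -0.39 and -0.41, while BoM shCtrl was at -0.25, 0.21 and -0.42. After each library's dependence on GC was removed, MEN1 still fell (mean -0.38) and KDM6A and SETD1B still rose (0.22 and 0.56). KMT2A, KMT2B, SETD1A and CXXC1 then also rose in the mean of the 3 lines, by 0.29, 0.19, 0.30 and 0.11, which made 6 genes higher and 1 lower, where the correction left 31.4% of all tested genes higher and 20.5% lower. The correction also moved the median log2 difference over all tested genes upward, from 0.003 to 0.0516. SETD1B then had a log2 difference larger in size than that of MEN1. Within lines the correction gave 1 higher and 1 lower in LM2 (9.12% and 8.54% of all tested genes), 2 higher and 0 lower in BrM3 (14.5% and 11.1%), and 4 higher and 1 lower in BoM (16.4% and 13%). For KMT2B and CXXC1 the direction itself turned.

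**Figure D3:**
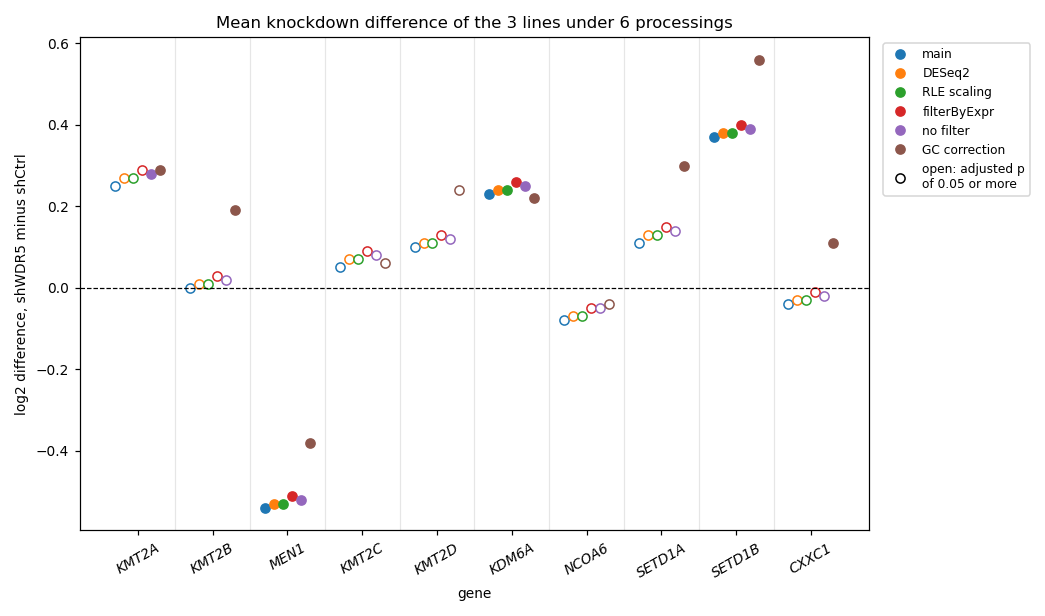
Log2 difference of shWDR5 minus shCtrl averaged over the 3 lines (vertical axis) for the 10 genes (horizontal axis) under 6 processings. MEN1, KDM6A and SETD1B keep filled points (adjusted p under 0.05) throughout, and the GC correction lifts the GC-rich genes, as from 0.11 to 0.30 for SETD1A.

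The responses of the lines were compared directly for each pair of lines. By edgeR 0 of the 10 genes differed in any pair and 0 had an unadjusted p under 0.05, where at most 0.00822% of all tested genes were called. DESeq2 also called 0 of the 10, where it called at most 0.329% of all tested genes. The highest limit of any 95% interval was 1.12 on the log2 scale (KMT2C, BoM against LM2), from a lower limit of -0.19.

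The shCtrl libraries give the order of these transcripts without knockdown. Per kilobase of the canonical transcript, MEN1 was highest at 21.7 CPM per kb (range 16.6 to 26.1 over 9 libraries), followed by NCOA6 at 15.4 (12.7 to 19), CXXC1 at 12.3 (6.78 to 17.2) and KMT2A at 10.7 (8.45 to 13.5). SETD1A stood at 7.13 CPM per kb, KMT2D at 6.42, KMT2B at 6.23, KMT2C at 4.88, KDM6A at 4.23 and SETD1B at 2.94 (1.73 to 4.08). The ranges of neighbours in this order overlapped for every pair, so only distant ranks are apart. The order also differed between lines. CXXC1 (16) lay above NCOA6 (13.5) in BrM3, KMT2A (12.2) lay above CXXC1 (9.62) in LM2, and the lowest in BrM3 was KDM6A (3.23), with SETD1B at 3.56, all as mean CPM per kb of 3 shCtrl libraries. With all annotated exons as the length, MEN1, NCOA6 and CXXC1 kept their places and KDM6A moved to the last. SETD1A (6.12 CPM per kb) then stood above KMT2A (5.64). By canonical length, the summed level of the 6 methyltransferases was 43.0 CPM per kb in LM2, against 38.3 in BrM3 and 33.6 for BoM, and KMT2A held 28.3%, 25.6% and 30.1% of it. These shares depend on the length used. With all annotated exons, KMT2A in LM2 shCtrl was at 6.42 CPM per kb, below KMT2D at 6.57.

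**Figure D4:**
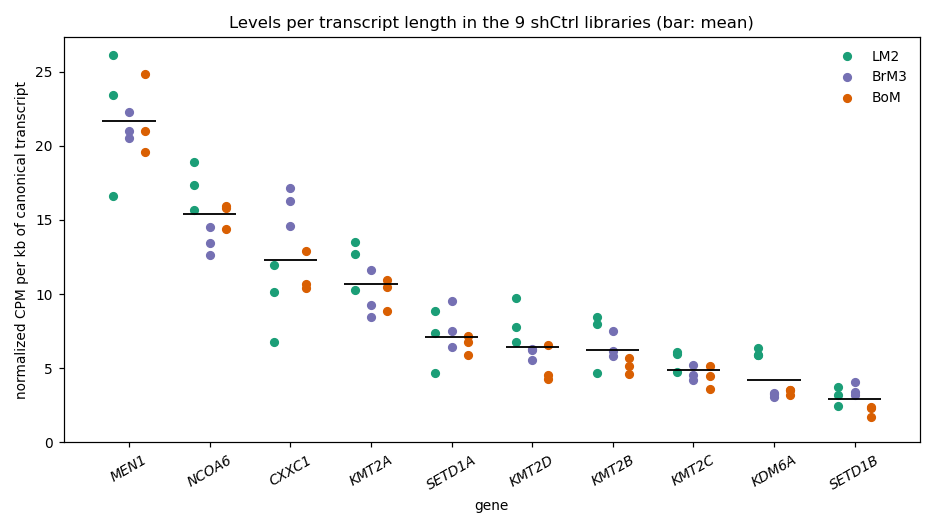
Normalized CPM per kb of canonical transcript (vertical axis, from 0) of the 10 genes in the 9 shCtrl libraries, coloured by line, with the mean as a bar. MEN1 is highest at 21.7 and SETD1B lowest at 2.94, and KDM6A in LM2 lies apart from KDM6A in the other lines.

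Among the 10 genes, KDM6A had the largest differences of the other control lines from LM2. Its 35.8 to 38.9 CPM in LM2 stood against 18.7 to 20.4 CPM in BrM3 and 19.3 to 21.5 CPM in BoM, with no overlap. KDM6A was at 53.4% of the LM2 level in BrM3 (log2 difference -0.90, SE 0.09, adjusted p = 1.8e-07) and at 56.3% in BoM (-0.83, SE 0.09, adjusted p = 4.9e-07). BrM3 and BoM differed from each other by 0.08 (95% interval -0.12 to 0.27). The pattern stood under every alternative, between -0.97 and -0.86 for BrM3 and between -0.92 and -0.78 for BoM.

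CXXC1 was at 15.7, 23.5 and 27.7 CPM in LM2 shCtrl, 33.8, 39.8 and 37.7 CPM in BrM3 shCtrl and 24.8, 30 and 24.1 CPM in BoM shCtrl. It was highest in BrM3, at 165% of LM2 (log2 difference 0.72, SE 0.18, adjusted p = 0.0028), and BoM lay below BrM3 by a log2 difference of -0.49 (SE 0.18, adjusted p = 0.037). That last call was lost without BoM shCtrl replicate 1 (-0.45) or 3 (-0.44) or without BrM3 shCtrl replicate 2 (-0.44) or 3 (-0.48). Over 8 alternative processings the CXXC1 difference of BoM minus BrM3 ran from -0.52 to -0.25. For BoM minus LM2 it was 0.23 in the main fit and 0.21 to 0.51 over the 8, passing in 2 of them. SETD1B was lowest in BoM, with log2 differences of -0.72 against BrM3 (SE 0.17, adjusted p = 0.0025) and -0.54 against LM2 (SE 0.17, adjusted p = 0.011). The latter was lost without BoM shCtrl replicate 3 (-0.41) or LM2 shCtrl replicate 2 (-0.39), and under the GC correction neither passed (-0.37 and -0.21).

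The remaining differences between control lines were smaller or rested on single libraries. NCOA6 in BrM3 was at 78.2% of LM2 (log2 difference -0.36, adjusted p = 0.036), a call lost without BrM3 shCtrl replicate 2 (-0.31) or 3 (-0.35) or LM2 shCtrl replicate 1 (-0.35) or 2 (-0.28). KMT2D in BoM was at 63.5% of LM2 (-0.66, adjusted p = 0.02), lost without BoM shCtrl replicate 2 (-0.58) or 3 (-0.54) or LM2 shCtrl replicate 2 (-0.50), and under the GC correction (-0.45). KMT2B in BoM was at 73% of LM2 (-0.45, adjusted p = 0.044), lost when any of 9 libraries was left out (-0.30 to -0.46). These 9 were BoM shCtrl replicates 1 and 3, LM2 shCtrl replicates 2 and 3, BrM3 shCtrl replicate 3, LM2 and BoM shWDR5 replicate 2 and BrM3 shWDR5 replicates 2 and 3, and the GC correction left -0.08. MEN1 passed in no comparison of control lines, with log2 differences of -0.06 (BrM3 minus LM2), -0.02 (BoM minus LM2) and 0.03 (BoM minus BrM3). The GC correction changed the sign of its BoM minus LM2 difference, to 0.27 (adjusted p = 0.0034). In counts, 1 gene was higher and 2 lower in BrM3 than in LM2 (24.2% and 23.4% of all tested genes, 47.6% together). In BoM against LM2, 0 were higher and 4 lower (26% and 25.8%, 51.8% together), and in BoM against BrM3, 0 were higher and 2 lower (17.8% and 19.8%, 37.6% together). With the GC correction BoM had 3 higher and 2 lower than LM2 (31% and 31.7% of all tested genes), and 1 higher and 1 lower than BrM3 (25.7% and 22.9%). These comparisons share control libraries.

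**Figure D5:**
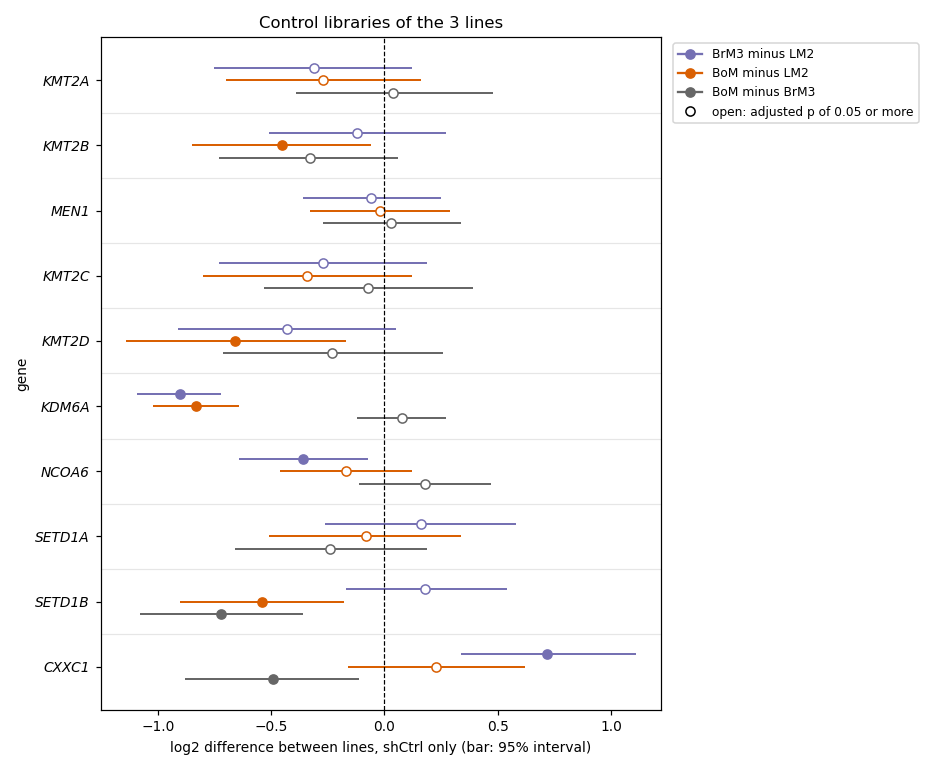
Log2 differences between the shCtrl libraries of pairs of lines (horizontal axis) for the 10 genes (vertical axis), with 95% intervals and filled points at an adjusted p under 0.05. KDM6A lies near -0.90 and -0.83 against LM2 and near 0 between BoM and BrM3.

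Other genes of the pathway were read from lists of the shared core (3 genes), further subunits (7 genes) and other SET-domain genes (5 genes), all tested. After knockdown, ASH2L of the core rose in the mean of the 3 lines by 0.16 on the log2 scale (adjusted p = 0.017; 0.073 with no filter), and RBBP5 and DPY30 passed nowhere. Among the further subunits 1 of 7 fell and 0 rose in the mean, beside 19.9% and 15.6% of all tested genes. This was PAXIP1, a BRCT-domain partner of KMT2C and KMT2D and of the DNA damage response. PAXIP1 was at 44.4, 40.3 and 41.3 CPM in LM2 shCtrl and 38.1, 36.7 and 37.4 CPM in LM2 shWDR5, at 37.6, 40.2 and 39.7 CPM against 31.4, 32.2 and 31.2 CPM in BrM3, and at 42.4, 39.1 and 39.6 CPM against 34.9, 31 and 31.5 CPM in BoM. Every shWDR5 library lay below every shCtrl library of its line, as for 7.14% of all tested genes. In LM2 the log2 difference of PAXIP1 was -0.17 (adjusted p = 0.24), which did not pass. PAXIP1 fell by 0.31 on the log2 scale in each of BrM3 and BoM, with adjusted p of 0.016 and 0.011, and by 0.26 over the 3 lines (SE 0.05, adjusted p = 0.00024). The BrM3 call was lost without BrM3 shCtrl replicate 2 (-0.29) or 3 (-0.30) or shWDR5 replicate 3 (-0.30), with filterByExpr (-0.26) and with no filter (-0.27), and the BoM call without BoM shCtrl replicate 1 (-0.27), with no filter (-0.30) and with BoM alone (-0.31). None of the 5 other SET-domain genes passed after knockdown by edgeR in the comparisons of hairpins.

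Between control lines calls are given as higher and lower, for the 3 core, 7 further and 5 other SET-domain genes in turn. In BrM3 against LM2 they were 1 and 0, 0 and 2, and 2 and 3, beside 24.2% and 23.4% of all tested genes. In BoM against LM2 they were 1 and 1, 0 and 2, and 1 and 3, beside 26% and 25.8%. In BoM against BrM3 they were 0 and 0, 1 and 0, and 1 and 1, beside 17.8% and 19.8%. These counts by themselves are no result about the lists. PRDM9, a histone methyltransferase that is normally made in meiotic germ cells, was at 12.1, 11.7 and 10.7 CPM in BoM shCtrl (214 to 481 reads), at 0.0324 to 0.101 CPM in LM2 shCtrl (2 to 6 reads) and at 0.142 to 0.179 CPM in BrM3 shCtrl (6 or 7 reads). BoM stood far above the other lines in reads. PRDM9 passed the filter on low counts only through its BoM libraries, so tests of BoM against LM2 and BrM3 add no support. In BoM shWDR5 it was at 8.55, 8.68 and 6.86 CPM, all below the controls, with a log2 difference of -0.52 that did not pass (adjusted p = 0.086). DPY30, a small core subunit, exceeded its LM2 level by 0.81 on the log2 scale in BrM3 and 0.87 in BoM, with adjusted p of 0.00035 and 0.00016. KMT2E, a SET-domain relative without known methyltransferase activity, had log2 differences of -0.60 and -0.78 from LM2, and ASH1L, an H3K36 methyltransferase, -0.54 and -0.97. SMYD3 had a log2 difference of 0.66 in BrM3 against LM2 and -0.59 in BoM against BrM3. PAGR1, which binds PAXIP1, had -0.63 in BrM3 and -0.77 in BoM against LM2. Smaller differences were those of WDR82 (-0.30) and SETD7 (-0.36) in BrM3 against LM2, of RBBP5 (-0.41), HCFC1 (-0.55) and SETD7 (-0.29) in BoM against LM2, and of BOD1L1 (0.44) in BoM against BrM3. Several of these calls were lost when a library was left out. In BrM3 against LM2 this held for WDR82 without LM2 shCtrl replicate 1 (-0.24), PAGR1 without BrM3 shCtrl replicate 1 (-0.52), SETD7 without BrM3 shCtrl replicate 2 (-0.32) or LM2 shCtrl replicate 1 (-0.30) and ASH1L without BrM3 shCtrl replicate 2 or 3 or LM2 shCtrl replicate 1 or 2 (-0.48 to -0.51). In BoM against LM2 it held for RBBP5 without BoM shCtrl replicate 2 or 3 or LM2 shCtrl replicate 1 or 2 (-0.32 to -0.42) and for HCFC1 without BoM or LM2 shCtrl replicate 2 or 3 (-0.45 to -0.53). SETD7 in BoM against LM2 lost its call without any of 10 libraries (-0.20 to -0.32), which were BoM shCtrl replicates 2 and 3, BrM3 shCtrl replicates 1 and 3, BrM3 shWDR5 replicates 2 and 3, each LM2 shCtrl library and LM2 shWDR5 replicate 2. BOD1L1 lost its call without BoM shCtrl replicate 1 or 3 or BrM3 shCtrl replicate 2 or 3 (0.39 to 0.44). The PRDM9 difference of BrM3 from LM2 (1.37, adjusted p = 0.031) rested on 7 reads per library at most and was lost without LM2 shCtrl replicate 3 (0.74) or any BrM3 shCtrl library (1.28 to 1.45).

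Over the 18 libraries the gene outside these lists with the most similar log2 CPM was recorded for each of the 10, out of 11758 candidates. KDM6A was most like DPYD (Pearson r = 0.985), CXXC1 most like SLC52A2 (0.975), KMT2B most like TNRC18 (0.972), MEN1 most like ZNHIT1 (0.958) and KMT2D most like EP300 (0.952). SETD1A was most like RAB11FIP3 (0.942), NCOA6 most like YLPM1 (0.938), KMT2A most like MAGI3 (0.937), SETD1B most like PPP1R18 (0.933) and KMT2C most like MTF1 (0.917). Among the 10, KMT2A and KMT2C moved together over libraries (r = 0.875). Libraries share line, depth and GC balance, so these values describe likeness only.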

How the data were processed

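The authors sequenced stranded mRNA libraries, aligned paired reads to hg38 with STAR 2.7.0, and deposited raw read counts per gene, without normalization, for all 18 libraries. The strand setting of counting is not given in the sources used here. The table holds 0 spike-in rows, so TMM scaling was used and global RNA levels were not analysed. The deposited DESeq2 fold changes and adjusted p-values of each line were not used. There were 0 unused per-sample columns. Titles gave line, hairpin and replicate. Source labels that name another line were not used. The cell line label says BrM2 where the study's text says BrM3. Column names mark the control hairpin by a code of its own, which was matched to shCtrl as the hairpin that is not shWDR5.

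The main test was edgeR's quasi-likelihood F test (edgeR 4.0.16, R 4.3.3), fitted once to the 6 groups, which leaves 12 residual degrees of freedom. Genes were kept by the HTSFilter criterion, recomputed here over 100 thresholds from 1 to 200 (highest mean Jaccard index 0.97 at 139.7). Calls were made at a Benjamini-Hochberg adjusted p under 0.05 over 12160 genes. Standard errors came from the F statistic, and 95% intervals used 12 degrees of freedom. Alternatives were DESeq2 1.42.0, RLE scaling, filterByExpr (18428 genes), no filter (41236 genes), a GC correction by loess (span 0.5, prior count 2), the replicate block, the compared groups alone and leaving out each library. The fits were tested on simulated counts with 200 changed genes. By edgeR, log2 changes of 0.5 were recovered for 38%, 31% and 38% of genes in LM2, BrM3 and BoM, and for 85% in the mean. Changes of 1 were recovered for 94%, 92% and 91%, and for 100% in the mean. A gene that did not pass within a line may still have changed by 0.5. Coordinates and lengths are those of GENCODE on GRCh38.

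The members and lists were chosen with earlier results of these data known. The genes named are the 10 members, WDR5, each listed pathway gene called in at least 1 group comparison and the gene most like each member. Replicate pairs differed by more than sampling noise (chi-square per gene 5.12 to 90.1), so each library counted as 1 replicate.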

Additional observations from a re-analysis of the deposited data

How the results depend on the processing

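For single genes, 3269 of 3412 alternative values kept their side of the threshold and, where they passed, their direction. Another 85 lost the call, 49 gained it and 9 reversed with a call in the main fit or the alternative. Sign changes with a call in neither are among the 3269. KMT2D in BoM is such a case, at 0.19 in the main fit and -0.20 at the lowest with a library left out. All 9 reversals that involve a call came from the GC correction. Without and with the replicate block they were 0.19 and 0.19 for KMT2B and 0.11 and 0.11 for CXXC1 in the mean response, 0.27 and 0.26 for MEN1 and 0.29 and 0.29 for SETD1A in BoM against LM2 controls, and 0.24 with the block for KMT2B in the BoM response. The cause was not tested. The correction also moved the number of the 10 genes called. After knockdown, 1 rose in LM2, 2 in BrM3, 4 in BoM and 6 in the mean of the lines, where 9.12%, 14.5%, 16.4% and 31.4% of all tested genes rose. Between controls, 3 were higher and 2 lower in BoM than in LM2 (31% and 31.7% of all genes), and 1 higher and 1 lower in BoM than in BrM3 (25.7% and 22.9%). DESeq2 called 2 as higher in BoM, KDM6A and SETD1B, where 8.83% of all tested genes rose. The fit with no filter also called 2, KMT2A and SETD1B, where 1.77% of all tested genes rose. Fitting only the compared groups, with fewer samples in the fit, gave 0 fallen genes in LM2 and 0 risen in BoM. In that setting 1.85% of all tested genes fell in LM2 and 1.62% rose in BoM. It gave 1 lower in BoM than in BrM3 controls (20% of all tested genes).

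Leaving out each library in turn gave 0 to 1 fallen genes in LM2, 0 to 2 risen in BoM, 1 to 3 lower in BrM3 than in LM2 controls, 1 to 5 lower in BoM than in LM2 and 1 to 2 lower in BoM than in BrM3. Of all 12160 tested genes, 313 to 724 fell in LM2 and 247 to 896 rose in BoM over the same fits. Between controls, in the order given, 2335 to 3013, 2702 to 3303 and 1813 to 2612 of all tested genes were lower. In BoM the KDM6A call depended on shCtrl replicate 2 (0 genes risen without it), while MEN1 kept its call whichever library was left out. In BoM 2 genes rose without shWDR5 replicate 3 or LM2 shCtrl replicate 1. The counts of differing responses were 0 throughout.

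The replicate numbers do not pair the libraries by the labels, and same-numbered libraries of a line had correlations of deviations from -0.17 to 0.728 (mean 0.36, against -0.194 for different numbers). With the replicate block 1 gene rose (SETD1B) and 1 fell (MEN1) in BrM3 (6.39% and 12.6% of all genes), and 3 rose in BoM (KMT2A, KDM6A and SETD1B; 11.3%). With the GC correction and the replicate block 2 rose in LM2 (16.6% of all genes), 5 rose and 1 fell in BrM3 (23.1% and 14.7%), 6 rose in BoM (24.4%), 7 rose in the mean of the lines (37.3%), 3 were higher in BoM than in LM2 controls (32.2%) and 1 higher in BoM than in BrM3 (27.5%).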
